A study of Mus musculus with 19 samples.

Results

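Chromatin accessibility was examined at the genes of the 4 glial intermediate filament proteins Gfap, Vim, Nes and Synm in mouse neural stem cells that differentiate into astrocytes, without or with tumour necrosis factor (TNF). Every peak whose centre lay in the body of one of these genes or within 20000 bp of either end was taken, which gave 32 of the 90154 peaks of the series. There were 7 peaks at Gfap, 6 at Vim, 14 at Nes and 5 at Synm, and all 32 passed the filter on low values. Accessibility had been measured by ATAC-seq, which reads out where a transposase could insert adapters into the genome, and each value is the number of reads in a peak divided by a scaling factor of the library (normalised reads). The cells were primary cells of wild-type C57BL/6J embryos (embryonic day 14), taken from the ventricular zone and grown with epidermal growth factor as floating neurospheres (NSPs, 0 h, 3 libraries). They were then moved to coated plates and serum for 24 h (3 libraries), 72 h (3 libraries) or 1 week (4 libraries). Further cells were differentiated with TNF at 50 ng/ml for 24 h (3 libraries) or 72 h (3 libraries), and no library had TNF for 1 week. The labels do not say which libraries came from separate cultures, so p-values measure the spread between these libraries, which may be technical.

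Intermediate filaments are the flexible, non-polar filaments of the cytoskeleton, and their protein makeup shifts as a neural stem cell becomes an astrocyte. Nestin and vimentin are the filament proteins of neural stem cells and radial glia, GFAP is the filament protein by which astrocytes are usually recognised, and synemin is a large partner that joins vimentin-type filaments and links them to other structures. GFAP and vimentin are also known to increase in reactive astrocytes.

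Reads in peaks ranged from 9640256 (1 week replicate 3) to 39349111 per library. NSP replicate 1 stood apart from the other NSP libraries, with rank correlations within the group between 0.916 and 0.983, and changes against NSPs are given with and without it. The names of the 10 libraries at 72 h and 1 week carry a tag that the 9 NSP and 24 h names lack, so in 72 h against 24 h and in 1 week against NSPs the tag and the time cannot be told apart. No member was among the 212 peaks with at most 3 reads in every tagged and at least 20 in every untagged library. This cut finds only peaks nearly absent from the tagged libraries, so it says nothing about smaller shifts with the tag. Of 7 peaks at gene ends of 6 stem and progenitor cell markers, 6 fell from NSPs to 24 h and none rose, while of 7 at gene ends of 7 astrocyte markers 5 fell and none rose, against 42.8% falling and 4.08% rising among all peaks within 1 kb of a protein-coding gene start. The marker peaks lay within 1 kb of either end of a gene, so this background of starts is not a matched set. Among peaks over 1 kb from a protein-coding gene start, 20.3% fell and 27% rose. Aqp4 and Pax6 had no peak at their ends. Of the microglial markers, Cx3cr1, Csf1r, Aif1 and C1qa had no peak there, nor had Mbp, Mog and Sox10 of oligodendrocytes or Col1a2, Dcn, Lum and Pdgfrb of fibroblasts. Since cells were measured in bulk, a change in the share of cells with an open site and a change in each cell cannot be told apart.

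Peaks are named here by gene and by the distance in bp of the peak centre from the gene start, with a minus for upstream and a plus for downstream in the direction of transcription. Positions are those of the deposited table (mm10), and the genes are those of RefSeq on GRCm38.p6. Gfap lies on the minus strand at chr11:102887336-102897200, Vim on the plus strand at chr2:13574311-13582826, Nes on the plus strand at chr3:87971093-87980451 and Synm on the minus strand at chr7:67730161-67759742. Only 6 of the 32 peaks had their centre inside a gene body, and 17 lay in a body or within 5 kb of an end. Each gene had a peak over its start, namely Gfap −160 (chr11:102897110-102897610), Vim −65 (chr2:13573996-13574496), Nes −37 (chr3:87970806-87971306) and Synm −101 (chr7:67759593-67760093). Some members may belong to neighbours. The centres of 4 peaks of the Nes window lay inside Bcan, which codes for the proteoglycan brevican, and Nes +29336 was 73 bp from the Bcan start. Gfap +16007 was 31 bp from the start of Ccdc103, Gfap +21978 lay inside Eftud2, Gfap −14314 inside Kif18b, and Synm +39334 and Synm +45391 inside Ttc23. Vim −16517 and Vim −15536 were nearer to the start of Trdmt1 (13130 and 14111 bp) than to that of Vim. Nes +16010 was nearer to the Bcan start (13253 bp), and Gfap +8899, in the Gfap body, was nearer to the Ccdc103 start (7077 bp). Gfap −160, Gfap −1341 and Gfap −3845 also lay over the long non-coding RNA gene Gm34560.

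**Figure D1:**
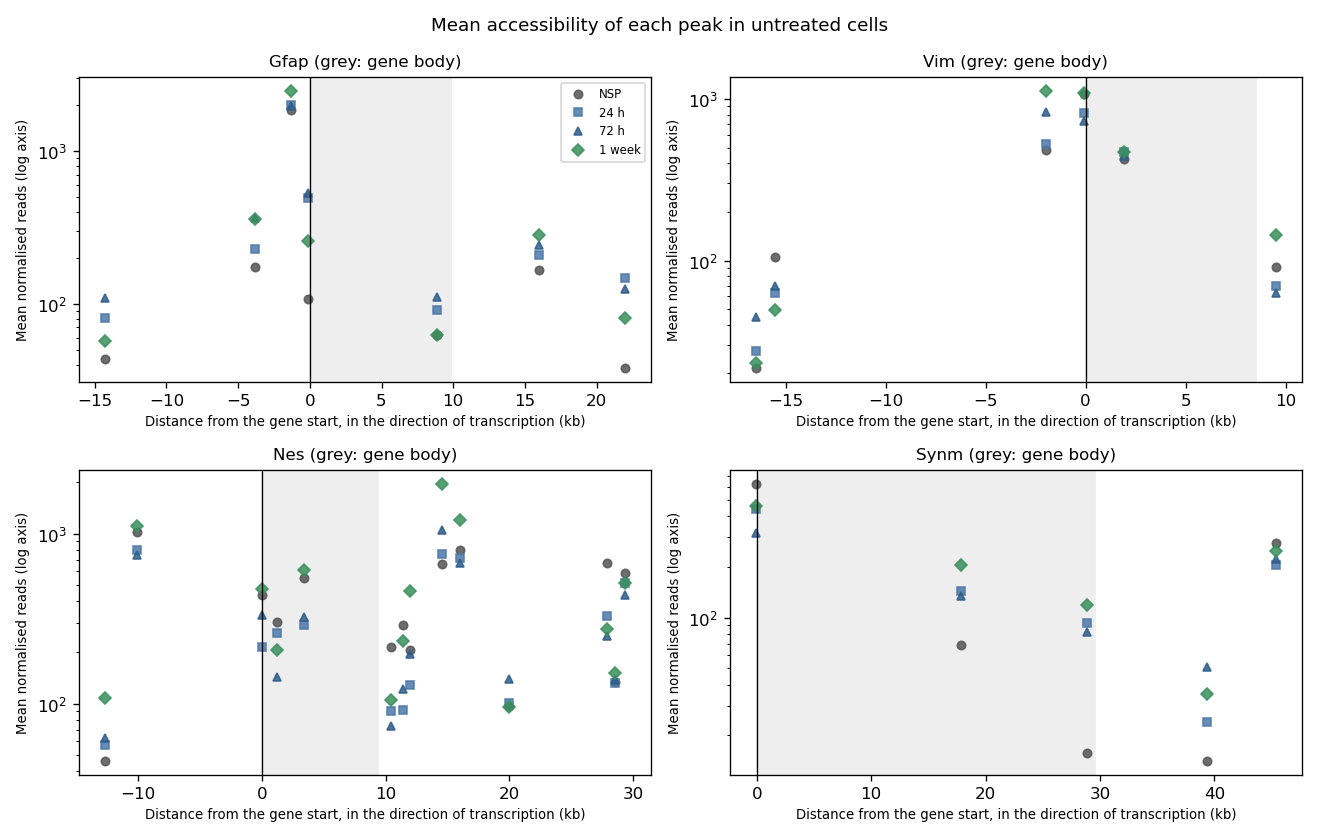
Mean normalised reads of each peak in untreated cells (vertical log axis) against the distance of its centre from the gene start in kb (horizontal axis), for NSPs, 24 h, 72 h and 1 week, with the gene body in grey. The highest peak was upstream of the start at Gfap (1341 bp), at the start of Vim and Synm, and 14516 bp downstream of the start at Nes.

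The DNA at the 4 starts differed in composition. The windows from 250 bp before to 50 bp after each RefSeq start, all fully inside the start peaks, are shown 5′ to 3′ on the coding strand because these peaks carry the first comparisons, with matches to the motifs searched in capitals.
Gfap, chr11:102897151-102897450, minus strand: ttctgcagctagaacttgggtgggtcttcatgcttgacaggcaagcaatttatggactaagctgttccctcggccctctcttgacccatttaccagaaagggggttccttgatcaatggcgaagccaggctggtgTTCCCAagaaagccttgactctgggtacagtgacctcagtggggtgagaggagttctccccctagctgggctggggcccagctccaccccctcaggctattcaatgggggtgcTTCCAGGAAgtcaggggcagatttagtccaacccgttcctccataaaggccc
Vim, chr2:13574061-13574360, plus strand: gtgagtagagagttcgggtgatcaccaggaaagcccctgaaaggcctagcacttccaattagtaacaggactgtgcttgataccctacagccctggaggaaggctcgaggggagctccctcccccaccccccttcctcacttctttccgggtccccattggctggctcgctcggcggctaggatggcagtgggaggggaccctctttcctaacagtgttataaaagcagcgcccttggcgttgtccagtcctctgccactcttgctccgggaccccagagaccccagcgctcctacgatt
Nes, chr3:87970843-87971142, plus strand: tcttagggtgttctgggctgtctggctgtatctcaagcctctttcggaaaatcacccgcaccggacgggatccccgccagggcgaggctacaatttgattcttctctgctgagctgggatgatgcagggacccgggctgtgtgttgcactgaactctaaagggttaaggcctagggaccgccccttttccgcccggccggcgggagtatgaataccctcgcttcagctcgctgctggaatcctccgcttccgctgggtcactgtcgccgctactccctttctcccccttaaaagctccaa
Synm, chr7:67759693-67759992, minus strand: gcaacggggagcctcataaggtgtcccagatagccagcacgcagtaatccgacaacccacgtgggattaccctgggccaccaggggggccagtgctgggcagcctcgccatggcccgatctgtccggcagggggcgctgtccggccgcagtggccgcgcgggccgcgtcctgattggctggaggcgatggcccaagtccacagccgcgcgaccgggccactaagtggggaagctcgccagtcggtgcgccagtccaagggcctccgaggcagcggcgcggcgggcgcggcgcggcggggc
The Gfap window held 3 CpG dinucleotides, against 11 at Vim, 18 at Nes and 33 at Synm and a median of 7 over the 32851 windows in the RefSeq table. Its GC content was 55.7%, against 59.3% at Vim, 58.7% at Nes and 72.7% at Synm, with a median of 52.7%. Motifs were searched on both strands as letters for STAT (TTCNNNGAA), AP-1 (TGANTCA), SOX (ATTGTT), RBPJ (TGGGAA) and an E-box (CAGCTG), and for the consensus of NFI and of NF-kB. The Gfap window held TTCCAGGAA, a STAT match, from base −2 to base 6 with the start counted as 0, and the RBPJ letters on the other strand (TTCCCA) from base −115 to −110, and these matches do not overlap. STAT letters were in 8.30% of all windows and RBPJ letters in 25.6%, and the other motifs were in 7.81% (AP-1), 0.0365% (NFI), 10.7% (SOX), 0.411% (NF-kB) and 16.3% (E-box). None of the 7 motifs matched in the Vim, Nes or Synm windows, which says only that these letters are not there.

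The members moved in both directions on the first day. Changes below are log2 fold changes of value + 1 with their standard error, from limma-trend fitted to all 19 libraries, and a peak rose or fell if its p, adjusted over the 88919 peaks tested, was under 0.05. Adding 1 shrinks the change of low peaks, but unequal libraries within a group can make it larger than the ratio of group means. At Vim +9522, where the NSP libraries had 15.8, 138 and 118 normalised reads, 1 week against NSPs was 2.18-fold on this scale, with a ratio of means of 1.58. From NSPs to 24 h, 7 of the 32 rose, against 24.2% of all peaks tested, and 10 fell, against 23%. All 7 that rose were at Gfap (5 of 7 peaks) or Synm (2 of 5), while 7 of the 14 Nes peaks, 1 of 6 at Vim and 2 of 5 at Synm fell. From 24 h to 72 h, 5 rose and 3 fell, against 12% and 14.3% of all peaks. From 72 h to 1 week, 15 rose and 5 fell, against 22.5% and 16.2%, and 10 of the 15 were at Nes and 4 of the 5 at Gfap. Over the whole course, 14 were higher and 4 lower at 1 week than in NSPs, against 33.7% and 33.6%. By the mean of each group, 12 of the 32 peaks were highest at 1 week and 8 in NSPs. This is a description only, as the share over all peaks was not computed. The libraries of the highest group often overlapped with those of the next. Without NSP replicate 1, 8 rose and 13 fell at 24 h, against 22425 and 21052 of the 88919 peaks tested. In this setting 14 exceeded and 6 lay below NSPs at 1 week, against 30809 and 29909 of all peaks. Scaled by total reads, 12 rose and 6 fell at 24 h, against 26112 and 12367 of all peaks. In the last step 7 rose and 6 fell with this scaling, against 7965 and 30033. The change of the median peak became 0.11 in place of −0.07 at 24 h, and −0.31 in place of 0.02 in the last step. With loess offsets, 10 rose and 7 fell at 24 h, against 21816 and 17305 of all peaks. In the last step 8 rose and 4 fell with these offsets, against 11619 and 10210.

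Gfap opened at its start on the first day. At Gfap −160, the NSP libraries had 186, 75.8 and 61.1 normalised reads, and those at 24 h had 511, 500.1 and 456. The 72 h libraries had 542, 493 and 552, and the 1 week libraries 248, 249, 255 and 279.9. All libraries at 24 h and 72 h were above all of the others without TNF, NSP replicate 1 was the highest NSP library, and the 24 h and 72 h libraries overlapped. The mean rose from 108 ± 68.1 (SD, n = 3) in NSPs to 489 ± 29.4 (SD, n = 3) at 24 h, a ratio of 4.55 (2.35 ± 0.22, adjusted p = 6.36e-10, 2.82 without NSP replicate 1). Among 10854 peaks within 1 kb of a protein-coding gene start, 4.08% rose and 42.8% fell at this step, and 0.203% changed by more in the upward direction than Gfap −160. No call was made from 24 h to 72 h (0.11 ± 0.22, adjusted p = 0.742). By 1 week the peak had fallen to 0.488 of its 72 h mean (−1.03 ± 0.21, adjusted p = 2.64e-04), a step at which 59.6% of the peaks near gene starts rose and 4.52% fell. It was still above NSPs (1.43 ± 0.21, adjusted p = 5.65e-07, 1.90 without NSP replicate 1).

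**Figure D2:**
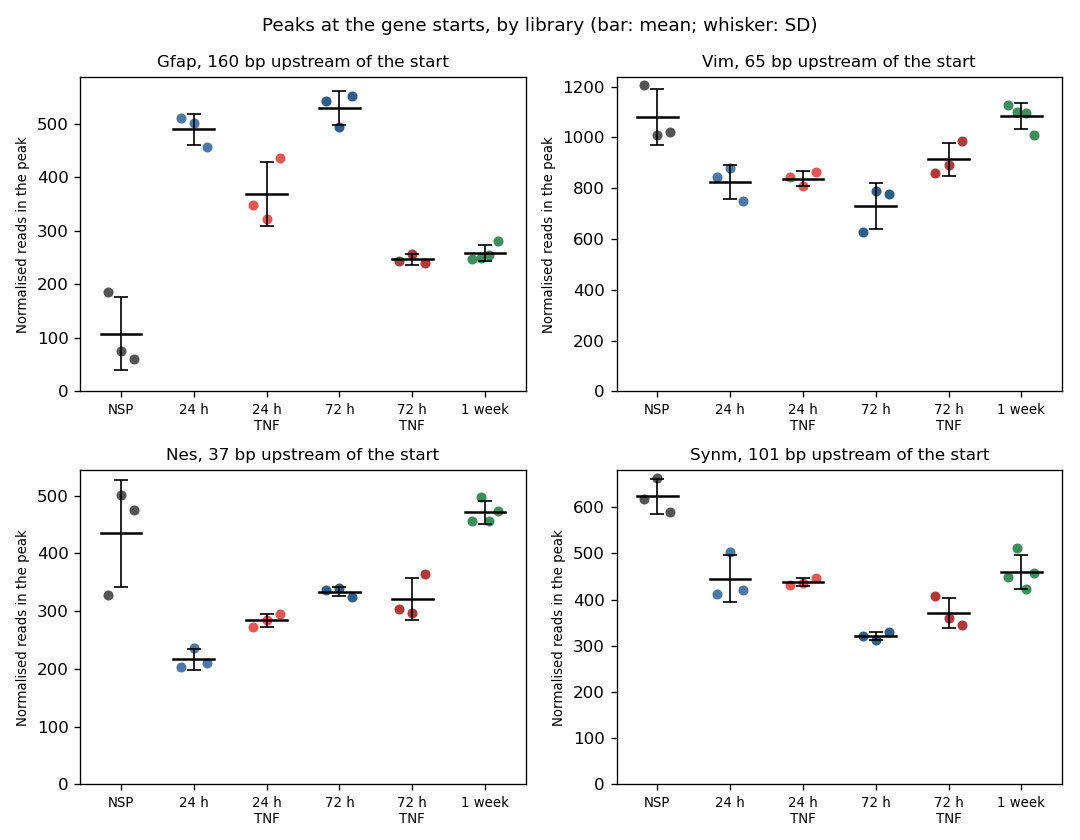
Normalised reads (vertical axis, from 0) in the peak at the start of each gene, for every library by group (horizontal axis), with the mean as a bar and the SD as a whisker. Gfap −160 was highest at 24 h and 72 h, where the mean of Vim −65, Nes −37 and Synm −101 was below that in NSPs.

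The strongest peak of the locus behaved otherwise. Gfap −1341 (chr11:102898291-102898791) had 2205, 1683 and 1669 normalised reads in the NSP libraries, 2072, 2098 and 1856 at 24 h and 1996, 1667 and 2245 at 72 h. At 1 week it had 2325, 2176, 2841 and 2511. It was thus already open in NSPs, at about the level of its later groups, and the libraries of NSPs, 24 h and 72 h overlapped. The changes to 24 h (0.13 ± 0.12, adjusted p = 0.409, 0.26 without NSP replicate 1) and from 24 h to 72 h (−0.04 ± 0.12, adjusted p = 0.853) did not pass. It rose from 72 h to 1 week (0.33 ± 0.11, adjusted p = 0.0245), a direction that turned with total-read scaling (−0.017) and with loess offsets per library (−0.39, a setting added later). The call was also lost with DESeq2 (0.27) and edgeR (0.21), and without 1 week replicate 3 (0.26), 1 week replicate 4 (0.31), 72 h replicate 1 (0.34) or 72 h replicate 2 (0.21). With total-read scaling and loess offsets it rose at 24 h (0.32 and 0.41). Over the whole course it was higher at 1 week than in NSPs (0.42 ± 0.11, adjusted p = 0.00205, 0.55 without NSP replicate 1). In the summed signal of the 7 Gfap peaks, the start peak made up 4.18% in NSPs, 15.0% at 24 h, 15.4% at 72 h and 7.24% at 1 week.

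Other peaks of the Gfap window followed the start peak to different degrees. Gfap +21978 (chr11:102874972-102875472), inside Eftud2, had 58.4, 21.7 and 33.9 normalised reads in NSPs and 142, 152 and 147 at 24 h, with no overlap (2.04 ± 0.24, adjusted p = 3.59e-08, 2.39 without NSP replicate 1). It had 127, 117 and 131 at 72 h and 68.8, 95.1, 77.0 and 83.6 at 1 week, and the last step was a fall (−0.63 ± 0.22, adjusted p = 0.0246) whose call was lost without 1 week replicate 1 (−0.55), 72 h replicate 1 (−0.62) or 72 h replicate 3 (−0.59) and with loess offsets (−0.56). Across the 19 libraries its log2 values had a Pearson r of 0.93 with Gfap −160, as a description over libraries that share groups and scaling. The r was 0.75 for Gfap −14314 (chr11:102911264-102911764), which rose at 24 h (0.87 ± 0.23, adjusted p = 0.00247, 0.78 without NSP replicate 1) and fell from 72 h to 1 week (−0.92 ± 0.21, adjusted p = 0.00121), and 0.26 for Gfap −1341. Gfap −3845 (chr11:102900795-102901295) had 202, 166 and 157 normalised reads in NSPs, 245, 211 and 233 at 24 h and 338, 354 and 399 at 72 h, with no overlap between these groups. It rose at 24 h (0.40 ± 0.16, adjusted p = 0.0437, 0.50 without NSP replicate 1, not called without 24 h replicate 1 (0.35), 24 h replicate 3 (0.39), NSP replicate 2 (0.36) or NSP replicate 3 (0.32), nor when fitted on only the compared groups (adjusted p = 0.0933)) and from 24 h to 72 h (0.66 ± 0.16, adjusted p = 0.00313), and was higher at 1 week than in NSPs (1.02 ± 0.15, adjusted p = 8.62e-07, 1.13 without NSP replicate 1). Gfap +16007, at the Ccdc103 start, passed only in 1 week against NSPs among the untreated comparisons (0.77 ± 0.14, adjusted p = 2.67e-05, 0.89 without NSP replicate 1).

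Vim, whose product accompanies nestin in stem cells and GFAP in astrocytes, fell at its start on the first day and rose from 72 h to 1 week, with little net change. Vim −65 had 1208, 1010.5 and 1023 normalised reads in NSPs, 843, 881 and 749 at 24 h and 627, 787 and 776 at 72 h. At 1 week it had 1129, 1099.6, 1096 and 1010.1. The NSP and 1 week libraries overlapped and lay above all untreated 24 h and 72 h libraries. The fall at 24 h (−0.39 ± 0.11, adjusted p = 0.00427, −0.31 without NSP replicate 1) was lost with total-read scaling (−0.20) and loess offsets (−0.15), and the rise from 72 h to 1 week (0.58 ± 0.10, adjusted p = 7.00e-05) was lost with loess offsets (0.04). Of the peaks near gene starts, 34.9% fell by more at 24 h and 27.5% rose by more from 72 h to 1 week. The change from NSPs to 1 week was 0.01 ± 0.10 and did not pass (adjusted p = 0.951, 0.09 without NSP replicate 1).

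Of the peaks further upstream of Vim, the nearest opened. Vim −2006 (chr2:13572055-13572555) had 248, 567 and 641 normalised reads in NSPs and 536, 497 and 549 at 24 h, which overlapped. It had 824, 803 and 869 at 72 h and 1052, 948, 1371 and 1116 at 1 week, all above the untreated 24 h libraries. It was higher at 72 h than at 24 h (0.66 ± 0.20, adjusted p = 0.0149, not called without 24 h replicate 2 (0.61) or 72 h replicate 3 (0.62)) and higher at 1 week than in NSPs (1.31 ± 0.19, adjusted p = 4.23e-07, 0.88 without NSP replicate 1). Vim +1939, in the gene body, passed in no comparison, with group means between 423 and 472. Vim −16517 (chr2:13557544-13558044) was the lowest Vim peak, at 36.0, 56.2 and 42.1 normalised reads at 72 h and 29.1, 23.4, 2.20 and 37.5 at 1 week, where replicate 3, the shallowest library, was near 0. Its fall at this step (−1.38 ± 0.53, adjusted p = 0.0412) was lost without 1 week replicate 3 (−0.56), 72 h replicate 1 (−1.52), 72 h replicate 2 (−1.20) or 72 h replicate 3 (−1.41), and with edgeR, DESeq2 and loess offsets. Vim −15536 passed in no comparison, and in NSPs it had 26.3, 153 and 136, with replicate 1 far below the others.

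Nes, the gene of the stem cell filament protein nestin, fell at its start on the first day and rose again later. At Nes −37, the NSP libraries had 328, 501 and 474 normalised reads and the 24 h libraries 203, 236 and 211. There were 336, 341 and 325 at 72 h and 457, 498, 456 and 474 at 1 week. The 24 h libraries were the lowest and did not overlap with NSPs, 72 h or 1 week, while 1 week overlapped with NSPs. The 24 h mean was 0.498 of the NSP mean (−0.98 ± 0.14, adjusted p = 7.44e-07, −1.17 without NSP replicate 1), and 1.88% of the peaks near gene starts fell by more. It rose from 24 h to 72 h (0.63 ± 0.14, adjusted p = 0.00106), where 3.40% of such peaks rose by more. It rose again from 72 h to 1 week (0.49 ± 0.13, adjusted p = 0.00287), a call lost with total-read scaling (0.15) and loess offsets (0.22), where 40.0% of such peaks rose by more. Between NSPs and 1 week the change was not called (0.14 ± 0.13, adjusted p = 0.339, −0.05 without NSP replicate 1).

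Of the 7 Nes peaks that fell at 24 h, 6 (85.7%) were among the 10 that rose from 72 h to 1 week, and they made up 60% of those 10. The share over all 14 Nes peaks was 71.4%, and of all peaks that fell at 24 h 27.7% rose in the last step. These comparisons share no library. The overlap rests on calls of the main fit, some of which were lost in other settings. At Nes −10097 the 24 h fall was lost with total-read scaling (−0.15) and loess offsets (−0.11). Its rise to 1 week was lost with loess offsets (0.04). With total-read scaling, the fall of Nes +11948 (−0.42) and the late rises of Nes −37 (0.15) and Nes +10437 (0.19) were lost. Nes +3386 and Nes +11375 lost neither call. The overlap was not recounted in these settings. Nes +3386 (chr3:87974229-87974729), in the gene body, had 524, 555 and 561 normalised reads in NSPs, 304, 258 and 307 at 24 h and 319, 324.2 and 326 at 72 h. At 1 week it had 597, 628, 627 and 581. All 24 h and 72 h libraries were below all NSP and 1 week libraries, with a fall at 24 h (−0.92 ± 0.11, adjusted p = 9.18e-08, −0.95 without NSP replicate 1) and a rise from 72 h to 1 week (0.91 ± 0.10, adjusted p = 3.08e-07). Nes +11375 (chr3:87982218-87982718), beyond the end of the gene, had 138, 363 and 368 in NSPs, 93.4, 91.5 and 91.1 at 24 h, 117, 105 and 143 at 72 h and 203, 217, 288 and 225 at 1 week. Its fall at 24 h was the largest of the members (−1.51 ± 0.24, adjusted p = 7.11e-06, −1.98 without NSP replicate 1), with NSP replicate 1 the lowest NSP library but still above 24 h, and it rose from 72 h to 1 week (0.93 ± 0.23, adjusted p = 0.0018). These peaks had an r of 0.82 and 0.87 with Nes −37 over the 19 libraries.

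The highest Nes peak, in contrast, gained accessibility to a level well above that of NSPs. Nes +14516 (chr3:87985359-87985859) had 389, 729.7 and 869.8 normalised reads in NSPs and 788, 707 and 779.7 at 24 h. It had 935, 1069 and 1152 at 72 h and 1865, 1914, 2091 and 1958 at 1 week. Every 1 week library was above every other untreated library, and NSP replicate 1 was the lowest of all 19. At 1 week the mean was 2.95 times that of NSPs (1.64 ± 0.16, adjusted p = 2.12e-10, 1.29 without NSP replicate 1) and 1.86 times that of 72 h (0.90 ± 0.16, adjusted p = 5.46e-05, 0.35 and not called with loess offsets). The 24 h change (0.27 ± 0.17, adjusted p = 0.186, −0.07 without NSP replicate 1) was called only with total-read scaling (0.46), with loess offsets (0.51) and without NSP replicate 3 (0.51), and the rise from 24 h to 72 h (0.47 ± 0.17, adjusted p = 0.0367) was not called without 24 h replicate 1 (0.50), 24 h replicate 2 (0.42), 24 h replicate 3 (0.49), 72 h replicate 2 (0.45) or 72 h replicate 3 (0.40). Nes +11948 (chr3:87982791-87983291) had 129, 254 and 235 in NSPs, 129.8, 115 and 143 at 24 h, 198, 182 and 204 at 72 h and 454, 433, 550.1 and 394 at 1 week. The 1 week libraries were above all others here too, and the peak was higher than at 72 h (1.22 ± 0.17, adjusted p = 3.46e-06) and than in NSPs (1.20 ± 0.17, adjusted p = 3.79e-07, 0.89 without NSP replicate 1). Its fall at 24 h (−0.61 ± 0.18, adjusted p = 0.0064, −0.92 without NSP replicate 1) overlapped with NSPs and was not called without NSP replicate 2 (−0.43), nor with only the compared groups (adjusted p = 0.0757) or total-read scaling (−0.42), and its rise from 24 h to 72 h (0.59 ± 0.18, adjusted p = 0.016) was not called without 24 h replicate 2 (0.51) or 72 h replicate 3 (0.56).

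Other sites of the Nes window were lower at 1 week than in NSPs. Nes +27844 (chr3:87998687-87999187), inside Bcan, had 680.0, 699.6 and 627 normalised reads in NSPs and 287, 354 and 342 at 24 h. It had 228, 256 and 263 at 72 h and 251, 263, 310.3 and 273 at 1 week. Every NSP library was above every library of the other groups, with a fall at 24 h (−1.03 ± 0.13, adjusted p = 2.71e-07, −1.02 without NSP replicate 1) and a lower level at 1 week (−1.28 ± 0.13, adjusted p = 3.59e-10, −1.27 without NSP replicate 1). Nes +10437 (chr3:87981280-87981780) had 154, 225 and 264 in NSPs, 92.2, 81.1 and 97.3 at 24 h, 63.1, 71.8 and 85.4 at 72 h and 98.7, 123, 99.0 and 102 at 1 week. It was lower than in NSPs at 24 h (−1.21 ± 0.22, adjusted p = 5.07e-05, −1.43 without NSP replicate 1) and at 1 week (−0.98 ± 0.21, adjusted p = 1.31e-04, −1.20 without NSP replicate 1). Its rise from 72 h to 1 week (0.52 ± 0.21, adjusted p = 0.0453) was not called without 1 week replicate 1 (0.56), 1 week replicate 2 (0.45), 1 week replicate 3 (0.55), 1 week replicate 4 (0.54), 72 h replicate 1 (0.42) or 72 h replicate 2 (0.51), nor with DESeq2 (0.48), edgeR (0.43) or total-read scaling (0.19). Nes +1196 (chr3:87972039-87972539), in the gene body, had 220.2, 322 and 365 in NSPs and fell from 24 h to 72 h (−0.86 ± 0.17, adjusted p = 4.23e-04), from 263, 236 and 285 to 133, 134 and 166. It rose to 195, 237, 222 and 177 at 1 week (0.52 ± 0.16, adjusted p = 0.00994), a rise lost with loess offsets (0.41) or total-read scaling (0.18). The 1 week libraries overlapped with NSPs there, and the difference (−0.52 ± 0.16, adjusted p = 0.0051, −0.73 without NSP replicate 1) was not called without NSP replicate 3 (−0.37). Of the other Nes peaks, Nes +28512 and Nes +29336, nearest to the Bcan start, passed in no comparison. The summed signal of the 14 peaks was 6009 ± 567 in NSPs, 4489 ± 63.4 at 24 h, 4688 ± 209 at 72 h and 7486 ± 278 at 1 week.

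Against NSPs, Synm was lower at its start and higher inside the gene. Synm −101 had 618, 662 and 589 normalised reads in NSPs, 411, 503 and 420.0 at 24 h and 320.4, 312 and 330.1 at 72 h. At 1 week it had 449, 510.5, 423 and 458. The NSP libraries were above all others, and the 72 h libraries were below all other untreated libraries. It fell at 24 h (−0.49 ± 0.11, adjusted p = 8.19e-04, −0.49 without NSP replicate 1) and again to 72 h (−0.46 ± 0.11, adjusted p = 0.00341). The rise to 1 week (0.51 ± 0.11, adjusted p = 4.08e-04) was lost with total-read scaling and loess offsets (0.17 with each), and 1 week remained below NSPs (−0.44 ± 0.11, adjusted p = 6.63e-04, −0.44 without NSP replicate 1). Of the peaks near gene starts, 21.6% fell by more at 24 h and 17.5% from 24 h to 72 h. From 72 h to 1 week 36.7% of them rose by more, and 21.1% were further below NSPs at 1 week. The lower start of Synm was thus not unusual among gene starts.

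Both peaks in the body of Synm rose at 24 h. Synm +28899 (chr7:67730593-67731093), near the end of the gene, had 12.3, 14.1 and 20.6 normalised reads in NSPs and 84.3, 100.3 and 96.1 at 24 h. It had 77.2, 84.9 and 84.1 at 72 h and 113, 108, 152 and 105 at 1 week. The NSP libraries were far below all others, and the 24 h mean was 5.97 times and the 1 week mean 7.62 times that of NSPs. These were the largest changes of the 32 members, at 24 h (2.53 ± 0.24, adjusted p = 6.57e-10, 2.38 without NSP replicate 1) and at 1 week (2.87 ± 0.22, adjusted p = 2.75e-12, 2.72 without NSP replicate 1), although the 24 h change of Gfap −160 was larger, at 2.82, without that library. Synm +17872 (chr7:67741620-67742120) had 33.9, 75.8 and 96.4 in NSPs, 129, 140.1 and 165 at 24 h, 136, 138 and 130.0 at 72 h and 220.4, 211, 183 and 212 at 1 week. It rose at 24 h (1.18 ± 0.22, adjusted p = 6.60e-05, 0.74 without NSP replicate 1) and was higher at 1 week than in NSPs (1.70 ± 0.21, adjusted p = 2.84e-08, 1.26 without NSP replicate 1), and no library of NSPs overlapped with those groups. From 72 h to 1 week Synm +17872 rose, as Synm −101 did (0.61 ± 0.21, adjusted p = 0.0203), a call lost without 72 h replicate 3 (0.59) and with loess offsets (0.52) or total-read scaling (0.27), and Synm +28899 did not pass at this step (0.52 ± 0.22, adjusted p = 0.0646). Over the 19 libraries their r with Synm −101 was −0.56 and −0.52. Synm +39334, inside Ttc23, was low throughout and was higher at 1 week than in NSPs (1.32 ± 0.37, adjusted p = 0.00238, 1.71 without NSP replicate 1). Synm +45391 fell at 24 h (−0.45 ± 0.16, adjusted p = 0.0233, −0.57 without NSP replicate 1), which was not called without 24 h replicate 1 (−0.34), 24 h replicate 3 (−0.39), NSP replicate 2 (−0.42) or NSP replicate 3 (−0.36) nor with loess offsets (−0.38), only the compared groups (adjusted p = 0.0884) or total-read scaling (−0.26).

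**Figure D3:**
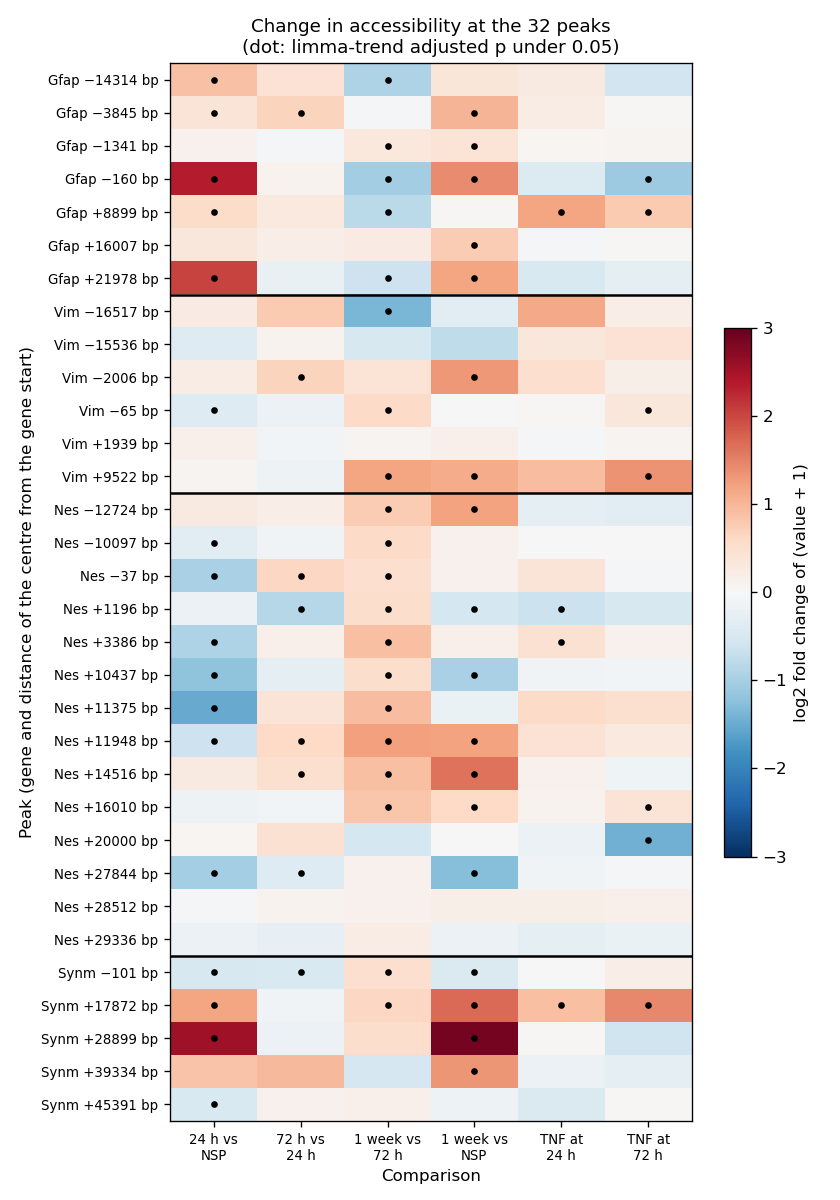
Log2 fold change of value + 1 (colour, red higher and blue lower) for the 32 peaks (vertical axis, by gene and distance from the start) in the 6 comparisons (horizontal axis), with a dot where the limma-trend adjusted p was under 0.05. Gfap peaks were red and many Nes peaks blue at 24 h against NSPs, and 10 Nes peaks rose and 4 Gfap peaks fell from 72 h to 1 week.

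TNF changed a small number of the members. At 24 h, 3 of the 32 peaks were higher with TNF, against 7.06% of all peaks tested, and 1 was lower, against 3.53%. At 72 h, 5 were higher and 2 lower, against 6.24% and 5.55%. Fitted on the compared groups alone, 8 rose and 2 fell at 24 h, against 8467 and 5750 of the 88919 peaks tested. Scaled by total reads, 3 rose and 3 fell at 72 h, against 4221 and 6601 of all peaks. The Gfap start closed with TNF at 72 h. Gfap −160 had 243, 257 and 239 normalised reads with TNF, against 542, 493 and 552 without. The treated libraries were all below the untreated ones, at 0.466 of their mean (−1.10 ± 0.22, adjusted p = 0.00106), and overlapped with those of untreated cells at 1 week. Of the 10854 peaks near gene starts, 2.98% rose and 0.866% fell with TNF at 72 h, and 0.203% fell by more than Gfap −160. At 24 h it had 348, 322 and 436 with TNF against 511, 500.1 and 456 without, again with no overlap, but the difference did not pass (−0.42 ± 0.22, adjusted p = 0.269), except when only the compared groups were fitted (adjusted p = 0.0151). The difference between the TNF effects at both times was −0.68 ± 0.31, adjusted p = 0.645 (unadjusted p = 0.0371).

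A peak at the other end of Gfap moved the opposite way. Gfap +8899 (chr11:102888051-102888551), in the gene body near its end, had 176, 166 and 296 normalised reads with TNF at 24 h against 80.8, 76.7 and 117 without. At 72 h it had 198, 182 and 189.6 against 113, 111 and 106. At both times every treated library was above every untreated one, with changes of 1.18 ± 0.22, adjusted p = 3.81e-04, and 0.78 ± 0.22, adjusted p = 0.0153. The 72 h call was lost without 72 h replicate 3 (0.75), 72 h TNF replicate 1 (0.75) or 72 h TNF replicate 3 (0.78). It was also lost with a replicate block numbered by the library names (0.69), a setting added later. In untreated cells the peak had fallen to 55.5, 68.6, 59.4 and 67.6 by 1 week (−0.81 ± 0.20, adjusted p = 0.00232), and its rise from NSPs to 24 h (0.54 ± 0.22, adjusted p = 0.0392, 0.37 without NSP replicate 1) overlapped and was not called without 24 h replicate 3 (0.35), NSP replicate 1 (0.37) or NSP replicate 3 (0.54), nor with loess offsets (0.52) or only the compared groups (adjusted p = 0.129). Gfap −1341 did not pass with TNF at 24 h (0.06 ± 0.12, adjusted p = 0.843) or 72 h (0.09 ± 0.12, adjusted p = 0.698).

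Synm +17872 rose with TNF at both times. It had 239, 263 and 314 normalised reads with TNF at 24 h against 129, 140.1 and 165 without, and 349.6, 387 and 361 against 136, 138 and 130.0 at 72 h. The groups did not overlap at either time, and the 72 h TNF libraries were the highest of all 19. The mean with TNF was 1.88 times that without at 24 h (0.90 ± 0.22, adjusted p = 0.00677, not called without 24 h TNF replicate 3 (0.80)) and 2.72 times at 72 h (1.44 ± 0.22, adjusted p = 4.93e-05). Synm −101 did not pass at 24 h (−0.02 ± 0.11, adjusted p = 0.96) or at 72 h (0.20 ± 0.11, adjusted p = 0.275).

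At Vim, 2 peaks rose with TNF at 72 h and none at 24 h. Vim +9522 (chr2:13583583-13584083), just beyond the end of the gene, had 194, 137 and 149 normalised reads with TNF against 59.2, 46.7 and 84.1 without at 72 h. There was no overlap (1.35 ± 0.43, adjusted p = 0.0364), but the call was lost when any 1 of 5 of the 6 libraries was left out, namely 72 h replicate 1 (1.32), 72 h replicate 2 (1.15), 72 h TNF replicate 1 (1.20), 72 h TNF replicate 2 (1.45) or 72 h TNF replicate 3 (1.39), and with DESeq2 (1.33) or total-read scaling (1.27). At 24 h it had 123.8, 149 and 118 against 64.9, 54.6 and 88.7 (0.92 ± 0.43, adjusted p = 0.192). In untreated cells it was higher at 1 week (148, 117, 180.4 and 127) than at 72 h (1.18 ± 0.40, adjusted p = 0.0201, not called without 1 week replicate 3 (1.07), 72 h replicate 1 (1.16) or 72 h replicate 2 (0.99), nor with DESeq2 (1.12) or total-read scaling (0.85)). Its difference from NSPs (15.8, 138 and 118) was not called without NSP replicate 1 (0.14), nor with DESeq2 (0.65), edgeR (0.59) or only the compared groups (adjusted p = 0.0962) (1.12 ± 0.40, adjusted p = 0.0149 with all libraries). Vim −65 had 862, 893 and 988 with TNF at 72 h, above all 3 untreated libraries (0.33 ± 0.11, adjusted p = 0.0461), a call lost without 72 h replicate 1 (0.22), 72 h replicate 3 (0.38), 72 h TNF replicate 1 (0.37), 72 h TNF replicate 2 (0.35) or 72 h TNF replicate 3 (0.27), and with edgeR (0.30), loess offsets (0.21) or total-read scaling (0.25).

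**Figure D4:**
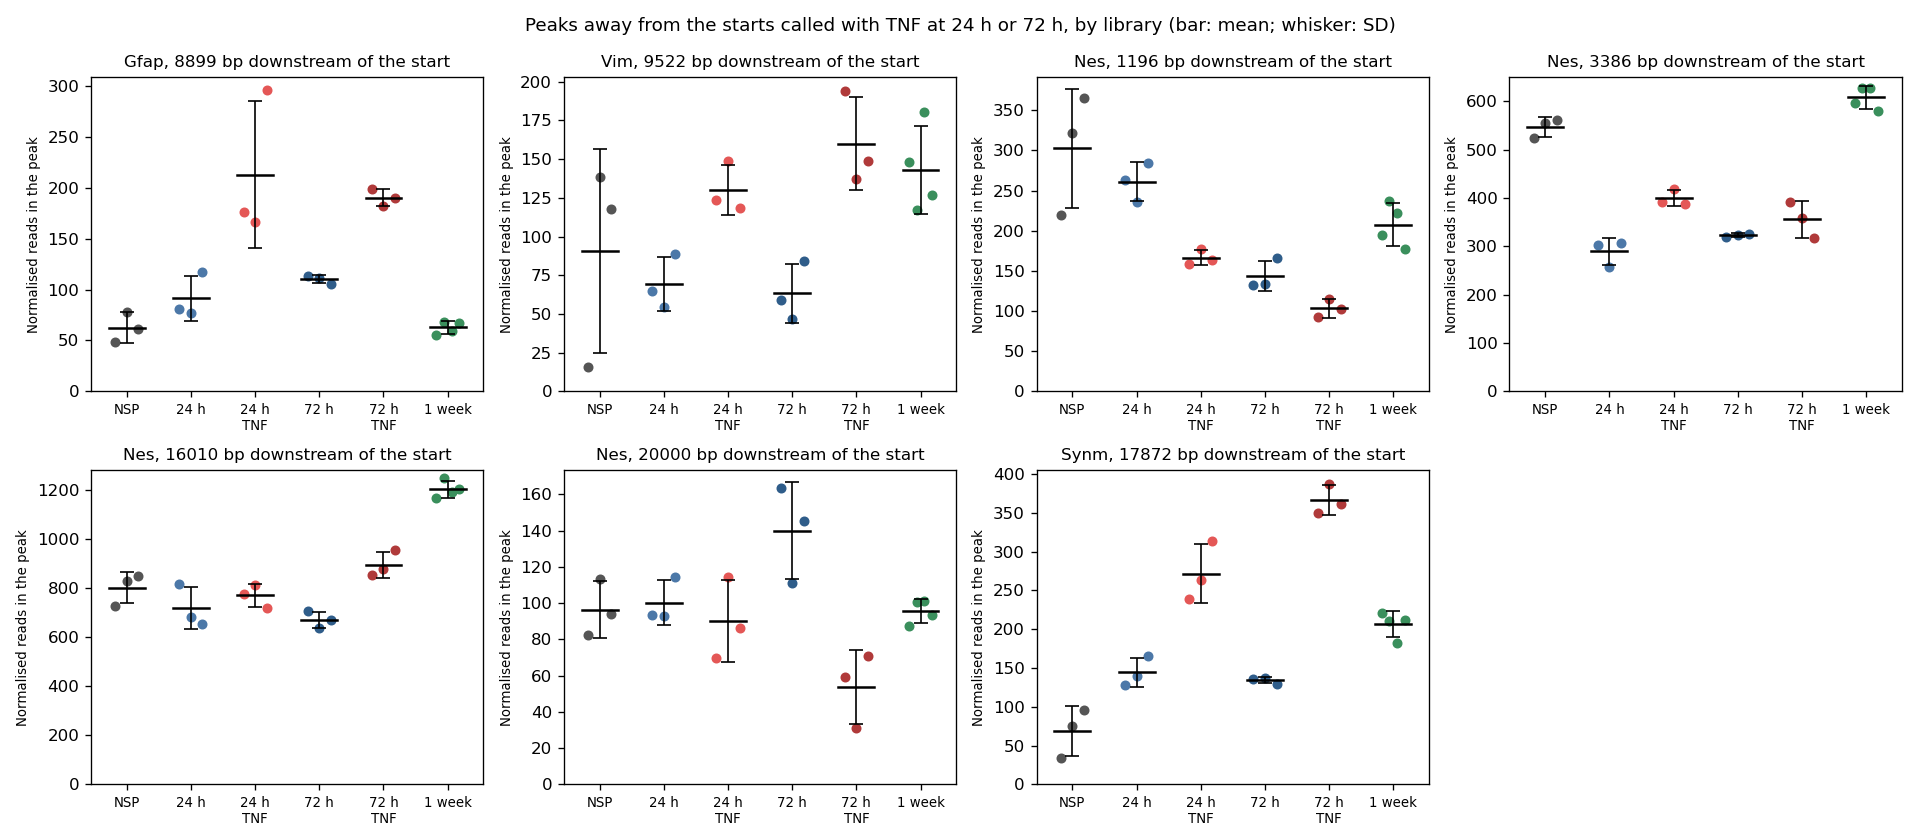
Normalised reads (vertical axis, from 0) for every library by group (horizontal axis) in the 7 peaks away from the gene starts that were called with TNF at 24 h or 72 h, with the mean as a bar and the SD as a whisker. Gfap +8899 and Synm +17872 were higher with TNF at both times, and Nes +20000 was lower at 72 h, where its treated libraries lay between 31.0 and 70.8.

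At Nes, 2 peaks passed with TNF at each time, in opposite directions. Nes +3386 had 392, 419 and 388 normalised reads with TNF at 24 h against 304, 258 and 307 without (0.47 ± 0.11, adjusted p = 0.00575), and at 72 h 392, 359 and 317 against 319, 324.2 and 326, where the groups overlapped (0.13 ± 0.11, adjusted p = 0.5). Nes +1196 was lower with TNF at 24 h, at 159, 178 and 163 against 263, 236 and 285 (−0.64 ± 0.17, adjusted p = 0.0119, not called without 24 h replicate 3 (−0.58) or 24 h TNF replicate 1 (−0.61)). At 72 h it had 92.1, 115 and 103 against 133, 134 and 166, also without overlap but not past the threshold (−0.47 ± 0.17, adjusted p = 0.0683). Nes +16010 (chr3:87986853-87987353) rose at 72 h, to 853, 875 and 954 from 704, 638 and 668 (0.42 ± 0.10, adjusted p = 0.00797, not called without 72 h TNF replicate 3 (0.37)). Nes +20000 (chr3:87990843-87991343), inside Bcan, fell at 72 h, to 59.0, 31.0 and 70.8 from 163, 111 and 145, and these groups did not overlap (−1.43 ± 0.24, adjusted p = 1.64e-04). At 24 h the groups overlapped there (−0.17 ± 0.24, adjusted p = 0.756). Nes −37 did not pass at 24 h, where 273, 284 and 296 with TNF lay above 203, 236 and 211 without (0.40 ± 0.14, adjusted p = 0.0588), except when only the compared groups were fitted (adjusted p = 0.0381), or at 72 h (−0.06 ± 0.14, adjusted p = 0.832).

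No member differed in its TNF effect between 24 h and 72 h past the threshold, and 0% of all peaks were higher and 0.00112% lower in this test. Without adjustment, 7 of the 32 had a p under 0.05, among them Nes +20000 (difference of −1.25 ± 0.34, adjusted p = 0.366). Over all peaks, limma-trend gave 3191 higher and 3484 lower at an unadjusted p under 0.05. After adjustment edgeR called 0 higher and 1 lower, DESeq2 12 and 45, and limma-trend on the compared groups alone 26 and 162, with 0 members called by any of these.

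The genes whose start peak was most like that of each member over the 19 libraries are given as a description, by Pearson r of log2 values over 9847 protein-coding genes with a peak at the start. They were Ghdc (0.87), Ripply1 (0.86) and Tmem182 (0.85) for Gfap, where the median over all genes was −0.39. For Vim they were Nsfl1c (0.94), Abcf1 (0.94) and Rer1 (0.94), with a median of 0.61. For Nes they were Bola1, Chkb and Polg2 (0.92 each), with a median of 0.42, and for Synm Tmpo (0.96), Nin (0.96) and Mogs (0.95), with a median of 0.47. The start peak of Gfap had an r of −0.63 with that of Vim, −0.65 with Nes and −0.70 with Synm, so it ran against the other start peaks and against most gene starts.

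Among 19 other genes of intermediate filaments and of linker proteins of the cytoskeleton, 182 peaks lay in the same kind of window. From NSPs to 24 h 48 (26.4%) rose and 34 (18.7%) fell, against 24.2% and 23% of all peaks. From 24 h to 72 h 50 (27.5%) rose and 20 (11%) fell, against 12% and 14.3%, and from 72 h to 1 week 41 (22.5%) and 23 (12.6%), against 22.5% and 16.2%. Over the whole course 77 (42.3%) gained and 39 (21.4%) lost accessibility, against 33.7% and 33.6%. With TNF, 22 (12.1%) rose and 1 (0.549%) fell at 24 h, against 7.06% and 3.53%, and 15 (8.24%) rose and 6 (3.30%) fell at 72 h, against 6.24% and 5.55%. Plec, the gene of the linker plectin, held the peak with the largest change with TNF at 24 h, chr15:76219043-76219543, where the mean of 83.9 normalised reads without TNF stood against 290.0 with TNF (2.12 ± 0.24, adjusted p = 4.57e-07). The same peak had means of 80.7 without and 318 with TNF at 72 h (1.93 ± 0.24, adjusted p = 2.00e-06). Of the 10 peaks at Ppl, which codes for the linker periplakin, 5 (50.0%) rose with TNF at 24 h, against 7.06% of all peaks, led by chr16:5135855-5136355 (2.09 ± 0.22, adjusted p = 1.30e-07). Ppl is named because this share was the highest of the 19 genes. At 72 h, 2 of its 10 peaks (20%) rose with TNF, against 6.24% of all peaks. Macf1, a linker of actin and microtubules, had 22 of 38 peaks (57.9%) higher and 1 (2.63%) lower at 1 week than in NSPs, against 33.7% and 33.6% of all peaks. These 22 were part of the 77 that gained accessibility over the whole course.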

How the data were processed

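ATAC-seq had been run on 19 libraries, grouped by their sample titles. Per the study's methods and the submitters' processing notes, the authors trimmed reads (Trim Galore), aligned them (Bowtie2, mm10), removed mitochondrial reads (SAMtools) and called peaks (MACS2). Versions, the treatment of duplicates, the transposase shift and the scaling of the table are not given in the sources used here. The authors deposited 1 table of signal per peak and library. Divided by the smallest value of its library, 100% of the entries came out whole (tolerance 0.01), which means that reads had been scaled by 1 factor for each library, and 9640256 to 39349111 reads were recovered. Most peaks (89898 of 90154) were 500 bp long.

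The planned test for raw counts was replaced by the planned test for normalised values. On the scale of log2(value + 1), group means over the 19 libraries were estimated by limma-trend with limma 3.58.1 under R 4.3.3. The filter was edgeR's filterByExpr (minimum 10), which kept 88919 peaks. Two-sided p-values received a Benjamini-Hochberg adjustment across these peaks in each of 7 comparisons, with a call under 0.05. The script was tested on simulated data. As alternatives, edgeR's quasi-likelihood test (4.0.16) and DESeq2 (1.42.0) on the recovered reads, other scalings, a pseudocount of 8, no filter, a replicate block, only the compared groups, and each library left out in turn were tried.

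Members and gene lists were chosen with earlier results of these data known. Named in full were the peak at each gene's start, each gene's highest peak and, in each comparison, the called peak with the smallest p per gene and direction. Other peaks were named after their values were seen. Gene positions and promoter windows came from RefSeq tables (GRCm38.p6). No exon, intron or UTR was assigned, and no sequence inside peaks other than these windows was read.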

Additional observations from a re-analysis of the deposited data

Results flagged for a closer look

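Of 32 tests for a library far from the others in the group of 4 at 1 week, 2 passed, and about 1 in 20 such tests passes by chance. At Nes +10437, replicate 2 had 123 normalised reads, while the others had 98.7 to 102. At Synm +28899, replicate 3, the shallowest library, had 152, while the others had 105 to 113. Without 1 week replicate 2 the rise of Nes +10437 from 72 h was 0.45 and not called, and the Synm +28899 difference from NSPs was called without any 1 library.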

How the results depend on the processing

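Of 74 calls at member peaks, 50 held in all settings that kept every library and 43 also when any 1 library was left out. With total-read scaling 12 peaks rose and 6 fell at 24 h, against 26112 and 12367 of the 88919 peaks tested. With this scaling 7 rose from 72 h to 1 week, against 7965, and 3 rose with TNF at 72 h, against 4221. Loess offsets per library, added after the data were seen, gave 8 rising from 72 h to 1 week, against 11619 of all peaks. Fitting only the compared groups gave 8 rising and 2 falling with TNF at 24 h, against 8467 and 5750 of all peaks. At 72 h it gave 4 falling with TNF, against 7686. A window of 5 kb held 17 peaks and the gene bodies 6. Leaving out 1 library gave 5 to 8 rising and 8 to 13 falling at 24 h, 2 to 5 and 2 to 3 from 24 h to 72 h, 11 to 14 and 3 to 5 from 72 h to 1 week, 2 to 3 and 0 to 1 with TNF at 24 h, and 1 to 4 and 2 with TNF at 72 h. Over all peaks these fits gave 19039 to 22425 rising and 16119 to 21052 falling at 24 h. From 24 h to 72 h they gave 7404 to 9128 and 9578 to 11332. From 72 h to 1 week they gave 16805 to 18702 and 10729 to 14049. With TNF they gave 3860 to 5629 and 1525 to 2502 at 24 h, and 3602 to 4261 and 2829 to 3618 at 72 h.

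Directions turned in these cases, and the cause was not tested. Gfap −1341 from 72 h to 1 week was −0.39 with loess offsets and −0.017 with total-read scaling. From 24 h to 72 h it was 0.0022 with edgeR, 0.18 with loess offsets, 0.043 with total-read scaling and −0.14 to 0.078 with 1 library left out. With TNF at 72 h it was −0.088 with loess offsets and −0.023 to 0.19 with 1 library left out. Vim −65 at 1 week against NSPs was −0.0039 with DESeq2, −0.025 with edgeR, −0.15 with loess offsets, −0.064 with total-read scaling and −0.038 to 0.091 with 1 library left out, and with TNF at 24 h −0.040 to 0.077. Leaving out 1 library also gave −0.073 to 0.51 for Nes +14516 at 24 h, −0.051 to 0.25 for Nes −37 at 1 week against NSPs, and −0.070 to 0.075 for Synm −101 with TNF at 24 h.

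Libraries of the same replicate number in the titles deviated together with correlations of at most 0.106. They did so best with their own number in 9 of 18 cases, each a choice among 3 libraries. This does not settle whether the numbers pair the samples, and the main fit took no pairing. The numbers in the library names were not compared in this way. With the replicate block, 13 peaks rose from 72 h to 1 week, against 18482 of all peaks, and 4 with TNF at 72 h, against 5357. This block lost 3 calls (Gfap −1341 and Nes +10437 from 72 h to 1 week, Vim −65 with TNF at 72 h). A replicate block numbered by the library names, which number the 72 h TNF libraries differently, was added later. It gave 2 rising with TNF at 72 h, against 4072 of all peaks. Depth limits the low peaks most, since the lowest value of a member was 1 read.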
